A study of Mus musculus with 24 samples.

Results

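The data compare what 2 drugs, each given alone, did to the RNA of ID8 Trp53−/− cells: 6 libraries of cells treated with AU15330 and 6 of cells treated with CISPLATIN, chosen by their treatment labels and making up 12 of the 24 libraries of the series. ID8 is a mouse ovarian cancer line that arose from ovarian surface epithelium in culture, and the line used here carries a Trp53 knockout, which every group shares, the controls included. AU15330 was given at 2.5 μM and CISPLATIN at 750 nM, both for 6 days, and the vehicle DMSO for the same time in 6 control libraries that serve here only to tell which drug moved a gene. The 6 remaining libraries, treated with both drugs, entered the fit and are not described. There was 1 concentration and 1 time for each drug, and the written methods give another cisplatin concentration for these cells than the labels, so the values compare these 2 exposures and not the drugs at matched strength. Nothing in the labels says that the replicates were separate cultures, so the p-values measure the spread between these samples only.

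AU15330 is a PROTAC, a compound that brings its target proteins to a ubiquitin ligase for degradation. Its targets SMARCA4 and SMARCA2 are the alternative ATPases of the SWI/SNF complexes, which slide or evict nucleosomes at enhancers and promoters. Cisplatin is a platinum compound that crosslinks DNA, blocks replication forks and damages dividing cells. Damaged or displaced nucleic acid can be read by cytosolic sensors (cGAS for DNA, RIG-I and MDA5 for RNA), which switch on type I interferons. Interferons act through their receptor, JAK1 and TYK2 on the transcription factor ISGF3, which binds the interferon-stimulated response element (ISRE) in the promoters of antiviral and antigen-presentation genes.

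Both drugs raised most genes of the interferon response, in which single members reached very different heights with each, so the promoters of 5 members are shown first. They are the 150 bases before the annotated start site, 5′ to 3′ on the gene's strand, from RefSeq promoters on GRCm38.p6. Capitals mark matches to the ISRE core GAAANNGAAA on either strand, which reads in the other direction as TTTCNNTTTC. Isg15 and Trim30a were higher with AU15330, and Ifit3, Oas3 and Rsad2 were higher with CISPLATIN.
Isg15 (chr4:156200819-156200968, minus strand): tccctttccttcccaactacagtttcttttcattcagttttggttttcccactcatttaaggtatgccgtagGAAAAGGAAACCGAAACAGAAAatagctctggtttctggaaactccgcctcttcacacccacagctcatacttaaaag
Trim30a (chr7:104465194-104465343, minus strand): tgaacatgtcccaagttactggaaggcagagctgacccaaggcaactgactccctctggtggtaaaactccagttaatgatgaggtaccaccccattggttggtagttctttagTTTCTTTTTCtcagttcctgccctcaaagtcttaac
Oas3 (chr5:120777660-120777809, minus strand): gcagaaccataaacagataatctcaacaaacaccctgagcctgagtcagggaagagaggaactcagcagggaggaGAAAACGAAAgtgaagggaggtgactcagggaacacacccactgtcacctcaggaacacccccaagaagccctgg
Ifit3 (chr19:34583379-34583528, plus strand): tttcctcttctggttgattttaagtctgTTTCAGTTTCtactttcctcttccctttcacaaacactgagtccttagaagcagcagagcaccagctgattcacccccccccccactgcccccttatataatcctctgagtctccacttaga
Rsad2 (chr12:26456453-26456602, minus strand): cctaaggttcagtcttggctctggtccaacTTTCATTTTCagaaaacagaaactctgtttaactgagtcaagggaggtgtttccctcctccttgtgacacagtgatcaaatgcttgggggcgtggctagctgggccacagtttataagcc
Isg15 held 3 overlapping matches and each of the other promoters held 1. A further entry for Trim30a, at another start site, held 0 in its 150 bases. Oas2 had no entry. Over the 300 bases around each start site, 41 of the 93 interferon-list genes with an entry held the core, as did 3.44% of the 32851 promoters of the table and 3.74% of the 10299 tested genes with an entry. Only 76.9% of the 121 tested interferon-list genes had an entry, which is under 80%, so a comparison of the core between genes higher with one drug and genes higher with the other is void. Promoters of the mitotic genes Ccnb2 and Cdc20, higher with CISPLATIN, are shown because the whole mitotic list moved together. Here capitals mark the cell cycle homology region (CHR) TTTGAA and the CCAAT box on either strand, which did not overlap each other in these windows.
Ccnb2 (chr9:70421555-70421704, minus strand): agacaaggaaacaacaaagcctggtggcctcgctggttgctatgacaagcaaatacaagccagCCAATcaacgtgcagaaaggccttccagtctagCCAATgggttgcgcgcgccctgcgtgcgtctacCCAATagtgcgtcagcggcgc
Cdc20 (chr4:118437344-118437493, minus strand): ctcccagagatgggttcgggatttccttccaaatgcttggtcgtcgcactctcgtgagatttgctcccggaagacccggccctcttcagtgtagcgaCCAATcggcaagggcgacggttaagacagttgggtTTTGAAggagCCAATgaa
Of the 36 mitotic genes, 30 had an entry (83.3%). The CHR was found in 23 of them (76.7%), against 17.9% of all promoters in the table, and the CCAAT box in 23 (76.7%), against 37.4%. Counted by gene, over the 10299 tested genes with an entry (79.6%), the shares were 14.1% and 43.3%. A match describes these letters in this window and does not show a bound site.

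The libraries held 18725778 to 23490259 gene-assigned reads with AU15330 and 21805569 to 25260009 with CISPLATIN. Levels are CPM, a gene's reads relative to the total of its library after TMM scaling, which do not correct for gene length, so they are compared between groups and never between genes. The first principal component of the 12 libraries, with 91.1% of the variance, separated the drugs. The second, with 2.5%, placed replicate 1 lowest in both groups. Replicate 1 also stood apart by its proliferation genes: the summed level of the mitotic list was 2274 CPM in it and 1065 to 1737 CPM in the other libraries with AU15330, and 5056 CPM against 3936 to 4592 CPM with CISPLATIN. Several counts and list medians are given without it below, but not every gene's difference. Replicates 1 to 3 differed as well from replicates 4 to 6: with CISPLATIN, 72 of the 121 tested interferon-list genes (59.5%) were lower in each of the first 3 than in each of the last 3, against 17.5% of all tested genes, while with AU15330 the figure was 20 of 121 (16.5%, all tested genes 16.3%). The labels give no batch, and what separates these libraries was not tested.

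The labelled cell type was checked against its markers. The summed level of 13 ovarian surface and mesothelial markers was 2012 to 2304 CPM with AU15330 and 5406 to 6015 CPM with CISPLATIN, with none at 0 in a whole group. With AU15330 several that define the ovarian surface were near 0 or far below their CISPLATIN level, among them Krt7, Krt19, Upk1b, Upk3b and Lrrn4, while Wt1, Krt8 and Gata6 remained. Markers of other cell types were low. The 8 leukocyte markers summed to 16.9 to 53.1 CPM with AU15330 and 6.99 to 13.3 CPM with CISPLATIN, of which only Cd68, a lysosomal protein, passed the filter on low counts, and 2 and 1 of the 8 were at 0 in every library of the group. The 5 endothelial markers summed to 0.261 to 0.763 CPM and 8.51 to 12.8 CPM, almost all of it Pecam1, and the 5 fibroblast markers to 45.0 to 70.1 CPM and 146 to 224 CPM, most of it Dcn. In bulk RNA, fewer cells of a type and less RNA per cell cannot be told apart. AU15330 acts on its targets after translation, so their transcripts are no test of the treatment: Smarca4 lay between 377 and 402 CPM (median 383) with AU15330 and between 292 and 333 CPM (median 322) with CISPLATIN, and Smarca2 between 246 and 302 CPM (median 289) and between 398 and 536 CPM (median 517). No group has an intact Trp53, so its mRNA does not test the knockout, and it was present with both drugs, between 18.7 and 22.2 CPM (median 20.2) and between 35.1 and 42.9 CPM (median 39.9).

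Most genes differed between the drugs by the test, the larger part of them by less than 2-fold. Of 12941 genes tested, 4631 were higher with AU15330 (35.8%) and 4825 were higher with CISPLATIN (37.3%) at a Benjamini-Hochberg adjusted p under 0.05 in edgeR's quasi-likelihood test. All differences between the drugs are given as AU15330 minus CISPLATIN on the log2 scale. The 2 directions were close in number and far apart in size: among called genes 1345 were at least 2-fold higher with AU15330 and 2498 at least 2-fold higher with CISPLATIN, and 151 against 981 were at least 8-fold apart. In 3591 genes (27.7%) all 6 AU15330 libraries lay above all 6 CISPLATIN libraries, and in 3838 (29.7%) all 6 lay below. Without replicate 1, 4728 and 4937 genes were called.

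Set beside the same DMSO libraries, which both contrasts share, AU15330 raised 4681 genes (36.2%) and lowered 4816 (37.2%), and CISPLATIN raised 3360 (26.0%) and lowered 3329 (25.7%). At 8-fold or more the drugs were opposite in lean: AU15330 raised 314 genes and lowered 772, whereas CISPLATIN raised 257 and lowered 18. Both drugs raised 1636 genes (12.6%).

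**Figure D1:**
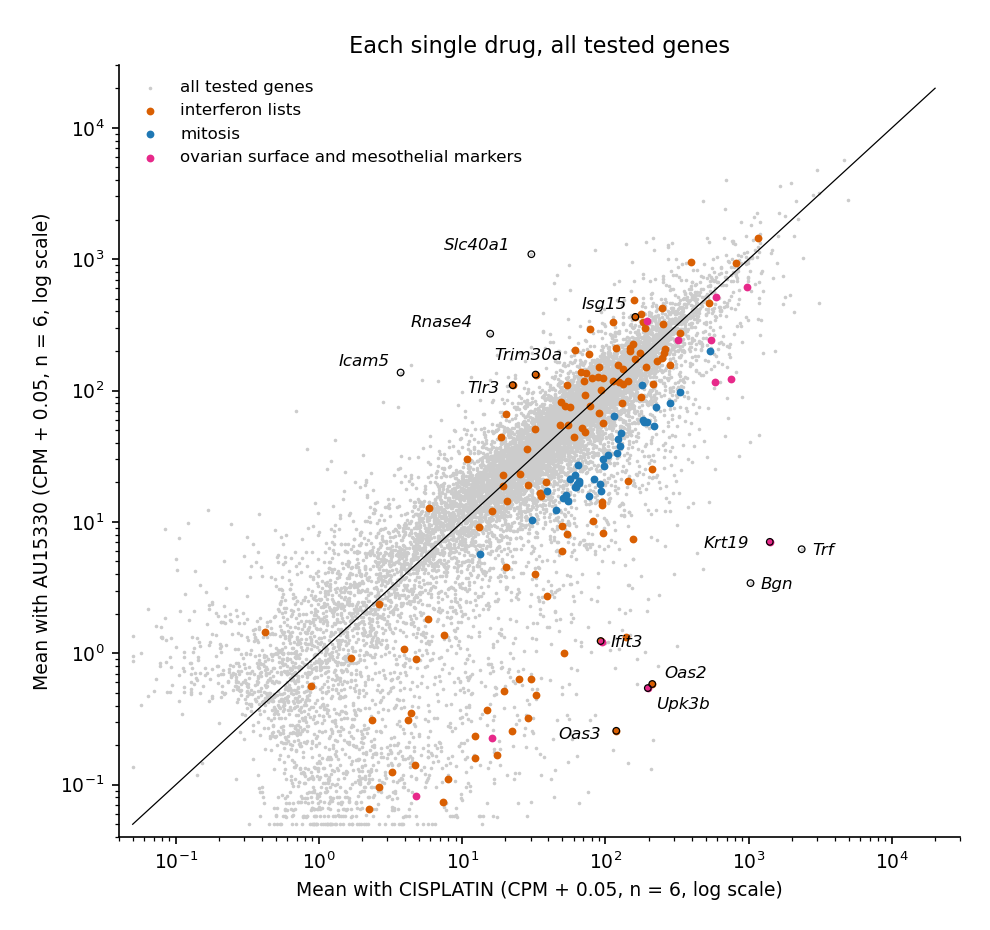
Mean level of each tested gene with CISPLATIN (x axis) and with AU15330 (y axis), both in CPM plus 0.05 on a log scale over 6 libraries each, with the diagonal of equal levels and 3 groups of lists in colour. Mitotic genes lie below the diagonal, surface markers such as Krt19 and Upk3b far below it, and interferon-list genes fall on both sides, from Oas3 below to Isg15 and Trim30a above.

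The genes furthest above with AU15330, among those of at least 4 log2 CPM and without overlap, were Icam5, Slc40a1, Ndnf, Mxd3, Map1a, Rnase4, Adamts1 and Gstp1. Icam5 (chr9:21032073-21039036 on GRCm38), a neuronal adhesion molecule, lay between 122 and 163 CPM (median 134) with AU15330 and between 2.37 and 4.98 CPM (median 3.7) with CISPLATIN, a log2 difference of 5.22 (standard error 0.14, adjusted p = 7.88e-21). Slc40a1, which encodes the iron exporter ferroportin, lay between 741 and 1491 CPM (median 1061) and between 22.1 and 36.5 CPM (median 30.6), a log2 difference of 5.17 (standard error 0.20, adjusted p = 5.07e-18). The DMSO libraries lay near the CISPLATIN ones for Icam5 (2.42 to 3.52 CPM) and between the drugs for Slc40a1 (50.1 to 71.7 CPM). Ndnf, a secreted neurotrophic factor, lay between 135 and 188 CPM (median 158) and between 3.79 and 5.11 CPM (median 4.29), a log2 difference of 5.16 (standard error 0.18, adjusted p = 6.65e-19). Rnase4, a secreted ribonuclease, lay between 238 and 289 CPM (median 281) and between 14.5 and 17 CPM (median 15.4), a log2 difference of 4.12 (standard error 0.14, adjusted p = 4.11e-19). Mxd3, a partner of MAX that opposes MYC, Map1a, a microtubule-associated protein, Adamts1, a protease of the extracellular matrix, and Gstp1, a glutathione transferase, differed by 4.55, 4.14, 4.03 and 4.01.

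Under the same 2 limits, the genes furthest above with CISPLATIN were Trf, Bgn, Amhr2, Krt19, C3, Pdgfb, Spns2 and Star. Trf (chr9:103204001-103230444), which encodes the iron carrier transferrin, lay between 5.24 and 7.38 CPM (median 6.01) with AU15330 and between 1479.9 and 3839 CPM (median 1740.0) with CISPLATIN, a log2 difference of −8.57 (standard error 0.36, adjusted p = 2.96e-17). Bgn, the matrix proteoglycan biglycan, lay between 1.81 and 9.59 CPM (median 2.07) and between 819 and 1124 CPM (median 1055), a log2 difference of −8.25 (standard error 0.41, adjusted p = 1.21e-15). For both, every AU15330 library was at least 10-fold below every CISPLATIN library. The highest Bgn value with AU15330 came from replicate 1, with the other libraries between 1.81 and 2.77 CPM. The Bgn difference is not given without replicate 1. Amhr2, the receptor of anti-Müllerian hormone, lay between 0.540 and 1.72 CPM (median 1.03) and between 275 and 371 CPM (median 314), a log2 difference of −8.19 (standard error 0.31, adjusted p = 5.4e-18). With DMSO both Bgn and Amhr2 were near the CISPLATIN level, at 899.8 to 1673 and 142 to 440.4 CPM. C3, the central protein of complement, lay between 2.6 and 5.64 CPM (median 4.35) and between 407 and 635 CPM (median 451), a log2 difference of −6.798 (standard error 0.26, adjusted p = 7.71e-18). Star, which carries cholesterol into mitochondria for steroid synthesis, lay between 2.03 and 3.1 CPM (median 2.49) and between 129 and 304 CPM (median 169), a log2 difference of −6.28 (standard error 0.21, adjusted p = 5.49e-19). Pdgfb, a growth factor, and Spns2, an exporter of sphingosine 1-phosphate, differed by −6.56 and −6.41.

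To separate what one drug did and the other did not, genes of at least 4 log2 CPM were taken that 1 drug changed at least 2-fold from DMSO, that differed at least 2-fold between the drugs, and that the other drug moved by less than 0.5 on the log2 scale. AU15330 alone raised 267 such genes and lowered 491. CISPLATIN alone raised 42 and lowered 16. The counts are set by these thresholds, and a move of the other drug below 0.5 could still be called by the test.

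Raised by AU15330 alone, after Icam5 and Ndnf, came Tnfrsf21, the death receptor DR6, at 36.8 to 68.8 CPM with DMSO, 538 to 748 CPM with AU15330 and 39.5 to 48.2 CPM with CISPLATIN. Ift80, a part of the transport machinery of cilia, was at 42.5 to 59.2, 447 to 534 and 35.7 to 52.6 CPM, and Hps3, which serves lysosome-related organelles, at 18.3 to 29.9, 173 to 210.5 and 16.1 to 18.7 CPM. In each of the 3 the AU15330 libraries stood clear of both other groups. Lowered by AU15330 alone were Bgn, Amhr2, Krt19, Spns2 and Mylk. Krt19, a keratin of simple epithelia and mesothelium, was at 1398 to 2518 CPM with DMSO, 4.15 to 14.4 CPM with AU15330 and 1164 to 1701 CPM with CISPLATIN. Mylk, the kinase of myosin light chains, was at 299 to 415, 3.58 to 7.04 and 351 to 494 CPM. Without overlap with either group, AU15330 libraries were lowest for both.

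Raised by CISPLATIN alone were Sp100, Ifitm3, Esco2, Ube2c and Cenpa, of which the first pair belong to the interferon lists and the others to chromosome segregation. Sp100, a protein of nuclear bodies, was at 5.69 to 14.9 CPM with DMSO, 10.1 to 18.8 CPM with AU15330 and 74.3 to 115 CPM with CISPLATIN. Ube2c, which supplies ubiquitin to the anaphase-promoting complex, was at 4.42 to 23.9, 9.9 to 34 and 74.5 to 128 CPM, and Cenpa, the centromeric histone, at 6.97 to 24.6, 10.6 to 27.5 and 66.5 to 93.5 CPM. The CISPLATIN libraries stood above all others in the 3 genes, and with AU15330 the highest value of Ube2c and of Cenpa came from replicate 1. Lowered by CISPLATIN alone, by the limits above, were Nqo1, Nucb2, Abcc4, Ace and Fam114a1. AU15330 was called above DMSO for Nqo1 (0.49) and Nucb2 (0.49), within the 0.5 limit. Nqo1, a quinone reductase, was at 35.8 to 95.1, 77.2 to 95.1 and 13.7 to 27.4 CPM, and Abcc4, an efflux transporter, at 66.2 to 227, 156 to 177 and 42.8 to 53.1 CPM. The CISPLATIN libraries were lowest in both, without overlap with AU15330 or DMSO.

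**Figure D2:**
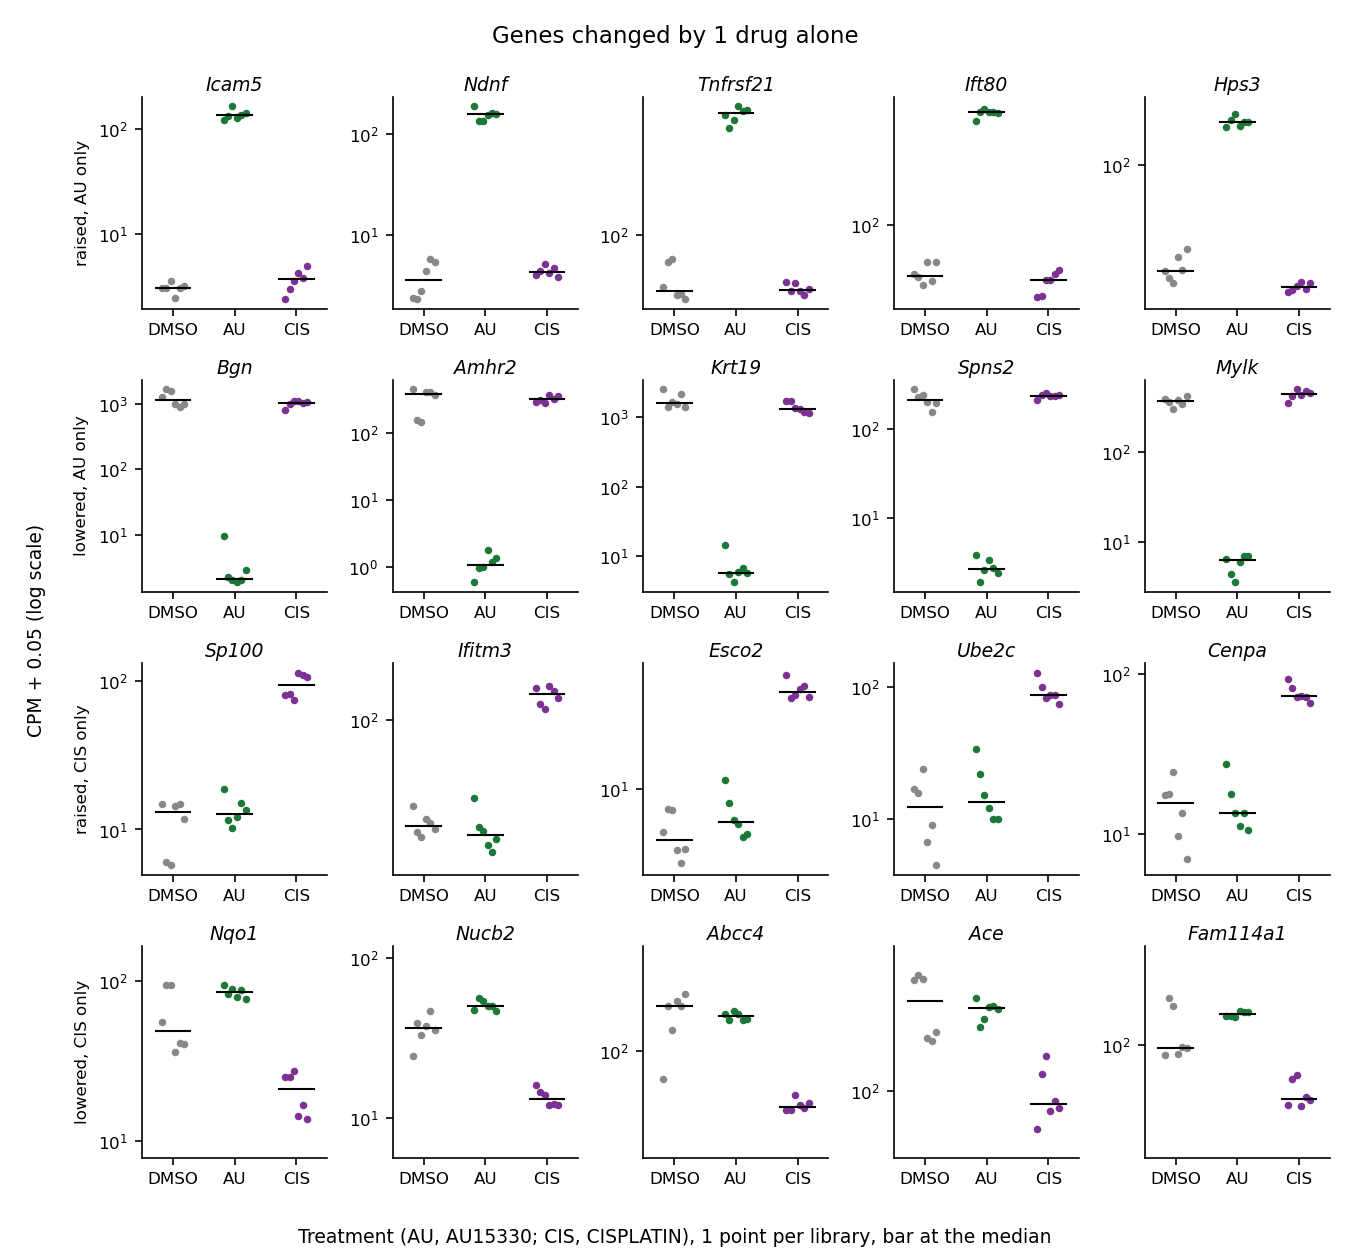
Level of 20 genes in each DMSO, AU15330 (AU) and CISPLATIN (CIS) library (1 point each, CPM plus 0.05, log scale, bar at the median of 6), with the 5 genes of each one-drug pattern in a row. In the upper rows the AU15330 libraries stand away from both other groups, and in the lower rows the CISPLATIN libraries do. In rows 2 and 3 replicate 1 is the highest AU15330 point for Bgn, Krt19, Ube2c and Cenpa.

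Opposite changes were rare at the same minimum level: 6 genes were raised at least 2-fold by AU15330 and lowered at least 2-fold by CISPLATIN, and 28 the other way round. The first kind included Slc40a1, Gstp1, Scd1, Sema3a and Srxn1. Scd1, which desaturates fatty acids, was at 388 to 806 CPM with DMSO, 992 to 1864 CPM with AU15330 and 186 to 266 CPM with CISPLATIN. Srxn1, which repairs oxidised peroxiredoxins, was at 88.9 to 155, 234 to 294 and 48.3 to 70.1 CPM. Sema3a, a secreted guidance factor, differed by 2.503 between the drugs. The second kind included C3, Ppl, Prss35, Sema4g and Flt4. C3 was at 119 to 274, 2.6 to 5.64 and 407 to 635 CPM. Ppl, the desmosome linker periplakin, and Flt4, a receptor of lymphatic growth factors, differed by −5.54 and −4.85. In the 3 genes given with values the drugs left no overlap.

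The interferon response was raised by both drugs and was of a different make-up with each. Of 142 genes in 11 interferon lists 121 were tested. AU15330 raised 85 of them above DMSO and lowered 20 (median log2 change over the 121 of 2.12), and CISPLATIN raised 106 and lowered 5 (median 2.57). Over all tested genes AU15330 raised 36.2% and lowered 37.2%, and CISPLATIN raised 26.0% and lowered 25.7%. Of the 121, 82 were raised by both drugs (67.8%, against 12.6% of all tested genes, and 80 without replicate 1). Directly compared, 40 were higher with AU15330 (33.1%, against 35.8% of all genes), 64 were higher with CISPLATIN (52.9%, against 37.3%) and 17 were not called, with a median of −0.40 against −0.01 over all tested genes. In 34 genes all AU15330 libraries were above all CISPLATIN libraries (28.1%, against 27.7% of all tested genes), and in 54 all were below (44.6%, against 29.7%). Without replicate 1 the counts were 39 and 66 with a median of −0.46. The summed leukocyte markers, Cd68 among them, were also higher with AU15330, and their part in the interferon values was not tested. The 82 genes that both raised were divided, 36 higher with AU15330, 33 higher with CISPLATIN and 13 not called, with a median of 0.04.

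Beside these 82, CISPLATIN raised 13 interferon-list genes that AU15330 did not change by the test (10.7%, against 5.49% of all tested genes), and 11 more that AU15330 lowered (9.09%, near the 7.83% of all tested genes), among them Mx1, Irf5, Ifi44, Ifi47, Tgtp1 and Sting1. The filter on low counts keeps a gene that is high enough in a single group. A gene near 0 with DMSO and AU15330, such as Oas3, could therefore be tested only through libraries with CISPLATIN. For such genes the pattern of the 13 follows from the filter and is no independent result. AU15330 raised 3 that CISPLATIN did not change by the test (Jak1, Tbk1 and Ddx41, or 2.48%, against 17.8% of all tested genes) and 0 that CISPLATIN lowered (against 5.72%). Within replicates 1 to 3 the direct comparison gave 38 of 123 genes higher with AU15330 and 58 higher with CISPLATIN (median −0.20). Over all 13008 genes tested there, 3682 and 4009 were called. Within replicates 4 to 6 the interferon lists gave 40 and 68 of 121 (median −0.53), and all 12985 tested genes gave 4657 and 4924. The median was thus on the side of CISPLATIN in both and over 2 times as far from 0 in replicates 4 to 6. The interferon genes themselves stayed below the filter: 0 of 10 ligand genes were tested.

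**Figure D3:**
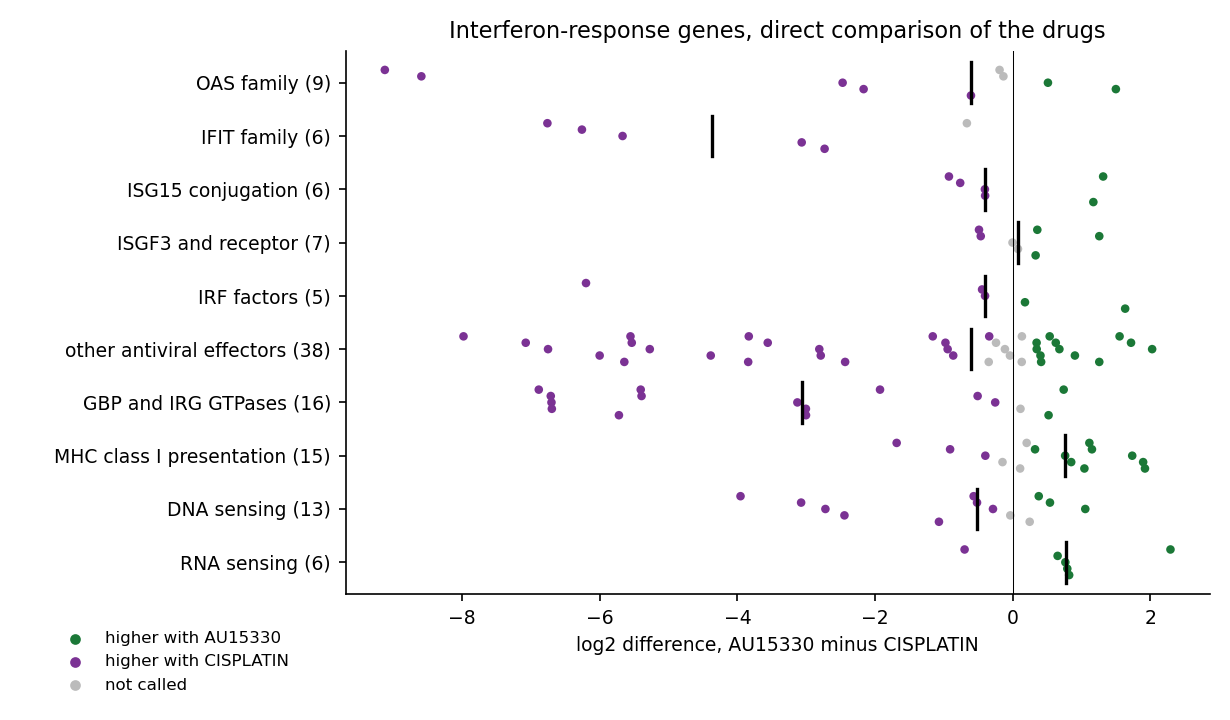
Log2 difference (AU15330 minus CISPLATIN) of every tested interferon-list gene, by family with the number tested, coloured by the call and with a bar at the family's median. The IFIT family and the GBP and IRG GTPases lie mostly left of 0 (medians −4.37 and −3.07), and MHC class I presentation and RNA sensing mostly right of it (medians 0.76 and 0.78).

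At the head of the pathway the differences were mostly small. Of 7 genes of the receptor and ISGF3, 3 were higher with AU15330 and 2 with CISPLATIN (42.9% and 28.6%, against 35.8% and 37.3% of all tested genes). Stat2, a subunit of ISGF3, lay between 139 and 199.8 CPM (median 182) with AU15330 and between 206 and 322 CPM (median 240.2) with CISPLATIN, against 34.1 to 48.5 CPM with DMSO, a log2 difference of −0.49 (standard error 0.12, adjusted p = 0.000936). Irf9, which gives ISGF3 its DNA contact, lay between 117 and 134 CPM (median 122) and between 85.7 and 106 CPM (median 96.2), against 15.2 to 20.8 CPM, a log2 difference of 0.36 (standard error 0.08, adjusted p = 0.000232). Neither gene had overlapping libraries between the drugs, with CISPLATIN above for Stat2 and AU15330 above for Irf9. The receptor chain Ifnar1 and the kinase Tyk2 were not called between the drugs (95% intervals −0.04 to 0.19 and −0.22 to 0.21), while the chain Ifnar2 was lower with AU15330 (−0.46) and the kinase Jak1 higher (0.33). With library totals in place of TMM, Ifnar1 was called higher with AU15330 (0.13, against 0.08).

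Of 8 interferon regulatory factors 5 were tested, 2 higher with AU15330 and 3 with CISPLATIN (against 35.8% and 37.3% of all tested genes). Irf1, an activator of MHC class I and GBP genes, lay between 388 and 587 CPM (median 489.8) with AU15330 and between 147 and 170.5 CPM (median 156) with CISPLATIN, against 77 to 96.8 CPM with DMSO, a log2 difference of 1.63 (standard error 0.10, adjusted p = 1.7e-13). Irf7, which amplifies interferon production, lay between 154 and 182 CPM (median 169) and between 182 and 262 CPM (median 229), against 7.59 to 11.1 CPM, a log2 difference of −0.45 (standard error 0.09, adjusted p = 8.26e-05). Irf5, an activator of inflammatory genes, lay between 0.143 and 0.617 CPM (median 0.465) and between 26.5 and 35.4 CPM (median 33.6), against 12.2 to 27.1 CPM, a log2 difference of −6.199 (standard error 0.25, adjusted p = 1.33e-17). Thus Irf1 and Irf7 rose from DMSO with both drugs, and Irf5 was almost lost with AU15330 (log2 change −5.54) and rose slightly with CISPLATIN (0.66). Irf3 and Irf2 were lower than DMSO with both. Irf3 was the other factor called higher with AU15330 (0.18). That call was lost under many alternatives, among them without replicate 1, 3, 4, 5 or 6 and within replicates 1 to 3. DESeq2, either other filter and the 1.5-fold threshold removed it as well.

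The sensors of RNA rose more with AU15330. Of 6 genes tested, 5 were higher with AU15330 and 1 with CISPLATIN (83.3% and 16.7%, against 35.8% and 37.3% of all tested genes). Ddx58, which encodes RIG-I, lay between 425 and 429 CPM (median 428) with AU15330 and between 190.4 and 286 CPM (median 251) with CISPLATIN, against 37 to 52.9 CPM with DMSO, a log2 difference of 0.79 (standard error 0.09, adjusted p = 2.26e-08). Ifih1, which encodes MDA5, lay between 197 and 231 CPM (median 208) and between 92.1 and 141 CPM (median 121), against 30.6 to 45.7 CPM, a log2 difference of 0.82 (standard error 0.10, adjusted p = 7.1e-08). Tlr3, the endosomal receptor of double-stranded RNA, had the widest gap of the 6 genes, between 103 and 115 CPM (median 109.5) and between 14.6 and 26.4 CPM (median 23.7), against 4.05 to 7.76 CPM, a log2 difference of 2.29 (standard error 0.13, adjusted p = 1.84e-14). No AU15330 library overlapped a CISPLATIN library in the 3. Mavs, the adaptor through which RIG-I and MDA5 signal, was the exception, between 73.3 and 86.4 CPM (median 79.5) and between 101 and 140.3 CPM (median 135), and with both drugs it was below DMSO (186 to 230.0 CPM, log2 changes −1.396 and −0.70).

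Among the sensors of DNA and their partners, 3 of 13 tested genes were higher with AU15330 and 8 with CISPLATIN (23.1% and 61.5%, against 35.8% and 37.3% of all tested genes, median −0.52). Cgas, whose product makes the messenger cGAMP from cytosolic DNA, lay between 6.99 and 11.2 CPM (median 8.68) with AU15330 and between 11.3 and 17.7 CPM (median 11.9) with CISPLATIN, against 3.65 to 5.12 CPM with DMSO, a log2 difference of −0.52 (standard error 0.12, adjusted p = 0.000252). Sting1, the receptor of cGAMP, lay between 4.93 and 7.38 CPM (median 5.82) and between 44.1 and 56.9 CPM (median 50.1), against 30.1 to 35.2 CPM, a log2 difference of −3.07 (standard error 0.10, adjusted p = 1.99e-19). Cgas was thus above DMSO with both drugs, and Sting1 was below it with AU15330 alone (log2 change −2.47). The DNA sensor Ifi204 lay between 10.5 and 20.9 CPM (median 13.2) and between 87.7 and 102 CPM (median 92.8), against 32.9 to 50.2 CPM, and its relative Ifi203 went the opposite way, between 127 and 150.1 CPM (median 140.1) and between 50.6 and 80.6 CPM (median 70.1), against 13.7 to 20.04 CPM. Aim2, which starts an inflammasome on DNA, differed by −2.44. Tbk1, the kinase that both sensing arms use, was higher with AU15330 (0.54, adjusted p = 2.11e-09). 

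The oligoadenylate synthetases, which sense double-stranded RNA, split within 1 cluster of genes. Of 9 tested, 2 were higher with AU15330, 5 with CISPLATIN and 2 not called (22.2% and 55.6% higher, against 35.8% and 37.3% of all tested genes). Oas2, Oas3 and the Oas1 genes lie together on chr5 between 120730333 and 120907521 (GRCm38). Oas3 lay between 0.0953 and 0.360 CPM (median 0.172) with AU15330, with 27 reads in all over 6 libraries, and between 73 and 159 CPM (median 124) with CISPLATIN, against 0.186 to 0.511 CPM with DMSO, a log2 difference of −9.12 (standard error 0.27, adjusted p = 5.75e-20). Oas2 lay between 0.238 and 0.945 CPM (median 0.491), with 71 reads in all, and between 130.2 and 311 CPM (median 205), against 0 to 0.627 CPM, a log2 difference of −8.59 (standard error 0.35, adjusted p = 2.3e-17). Neither was changed from DMSO by AU15330 in the test (adjusted p = 0.117 and 0.229), and with CISPLATIN every library was above 70 CPM. Within the same cluster Oas1a lay between 17.5 and 21.3 CPM (median 18.8) and between 15.8 and 37.1 CPM (median 31.4), against 0 to 0.279 CPM, a log2 difference of −0.61 (standard error 0.16, adjusted p = 0.00155), a call made within replicates 4 to 6 (−0.99) and not within 1 to 3 (−0.14). Oas1b lay between 21.5 and 24.7 CPM (median 23) and between 17.4 and 34 CPM (median 25), where the groups overlapped and were not called (−0.14, 95% interval −0.43 to 0.16), although CISPLATIN was called higher within replicates 4 to 6 (−0.42). Oas1c was higher with AU15330, between 25.8 and 34.2 CPM (median 29.6) and between 9.46 and 12 CPM (median 10.4), a log2 difference of 1.498 (standard error 0.11, adjusted p = 5.7e-12). Oas1g was higher with CISPLATIN at a low level, between 0.667 and 1.8 CPM (median 1.34) and between 2.58 and 10.8 CPM (median 7.93), against 0 to 0.162 CPM, a log2 difference of −2.47 (standard error 0.30, adjusted p = 5.82e-08). The related Oasl1 and Oasl2 overlapped between the drugs, at medians of 219 CPM with AU15330 and 144 CPM with CISPLATIN for Oasl1 (0.51, adjusted p = 0.0034) and 465 and 527 CPM for Oasl2, which was not called. Within replicates 4 to 6 Oasl2 was called higher with CISPLATIN (−0.29), and within replicates 1 to 3 the call of Oasl1 was lost (0.044). The Oas1 genes resemble each other, so the counting could have split reads between them, and Oas1b is annotated as a polymorphic pseudogene.

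The IFIT genes, which bind foreign RNA ends and lie together on chr19 between 34550694 and 34650009, were the family furthest to the side of CISPLATIN. Of 6 tested, 5 were higher with CISPLATIN and 0 with AU15330 (83.3% with CISPLATIN, against 37.3% of all tested genes, median −4.37), although each drug raised all 6 above DMSO (against 12.6% of all tested genes raised by both). Ifit1 lay between 15 and 36.6 CPM (median 25.7) with AU15330 and between 165 and 248 CPM (median 219) with CISPLATIN, against 0.390 to 1.83 CPM with DMSO, a log2 difference of −3.07 (standard error 0.21, adjusted p = 5.83e-13). Ifit3, whose promoter is printed above, lay between 0.763 and 1.8 CPM (median 1.04) and between 66.1 and 122 CPM (median 90.4), against 0.0487 to 0.862 CPM, a log2 difference of −6.26 (standard error 0.28, adjusted p = 9.64e-17). Ifit2 lay between 5.72 and 11.3 CPM (median 7.94) and between 40.1 and 71.7 CPM (median 53.6), a log2 difference of −2.73 (standard error 0.17, adjusted p = 1.57e-13). All CISPLATIN libraries were above all AU15330 libraries in the 3 genes. Only Ifit1bl2 was not called, at medians of 0.481 and 0.774 CPM, and it was called without replicate 3 (−0.98) and within replicates 4 to 6 (−1.35). These genes are similar in sequence, so reads could have been split between them. Without replicate 1, AU15330 raised 5 of the 6.

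The large GTPases of the GBP and IRG families, which attack vacuoles of microbes, followed. Of 17 genes 16 were tested, 2 higher with AU15330 and 13 with CISPLATIN (12.5% and 81.2%, against 35.8% and 37.3%, median −3.07). CISPLATIN raised all 16 above DMSO (against 26.0% of all tested genes), and AU15330 raised 10 and lowered 3 (against 36.2% and 37.2%). Gbp2 lay between 91 and 149 CPM (median 139) with AU15330 and between 66.7 and 107 CPM (median 91.4) with CISPLATIN, against 1.64 to 4.33 CPM with DMSO, a log2 difference of 0.52 (standard error 0.15, adjusted p = 0.00315). Gbp3, in the same cluster on chr3, lay between 7.62 and 17.4 CPM (median 9.1) and between 59.4 and 96.1 CPM (median 89.7), against 0.0487 to 1.13 CPM, a log2 difference of −3.003 (standard error 0.22, adjusted p = 4.25e-12). The Gbp2 libraries of the drugs overlapped and the Gbp3 libraries did not. Irgm1 and Irgm2, regulators of the IRG proteins, reached medians of 278 and 99.1 CPM with AU15330 and 341 and 93.5 CPM with CISPLATIN, and the call of Irgm1 (−0.25) was lost without replicate 4, 5 or 6, within replicates 1 to 3 (−0.04) and with library totals in place of TMM (−0.199). Within replicates 1 to 3 Irgm2 was called higher with AU15330 (0.47). Ifi47 lay between 0.583 and 1.31 CPM (median 0.960) and between 45.5 and 56.2 CPM (median 52), against 4.58 to 8.47 CPM, a log2 difference of −5.72 (standard error 0.18, adjusted p = 1.2e-19). Tgtp1 lay between 0.132 and 0.405 CPM (median 0.273) and between 19.7 and 34.8 CPM (median 31.8), against 0.926 to 3.49 CPM, a log2 difference of −6.695 (standard error 0.30, adjusted p = 1.17e-16). For both, the AU15330 libraries fell below DMSO while the CISPLATIN libraries rose above it. Gbp10 had 2 reads in all with AU15330 and 1.05 to 3.24 CPM with CISPLATIN, and Iigp1 had 8 reads in all and 5.27 to 9.95 CPM. Tgtp1 and Tgtp2 are near copies, and Igtp and Irgm2, as well as Gbp4, Gbp8 and Gbp9, overlap in the annotation, so their counts are uncertain.

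The ISG15 system, a ubiquitin-like tag placed on new proteins, was raised by both drugs in all 6 genes tested (against 12.6% of all tested genes). Isg15 itself lay between 295 and 422 CPM (median 357) with AU15330 and between 110.3 and 196 CPM (median 171) with CISPLATIN, against 1.59 to 3.77 CPM with DMSO, a log2 difference of 1.17 (standard error 0.14, adjusted p = 4.58e-08). Herc6, its ligase, lay between 160.0 and 219.6 CPM (median 192) and between 64.3 and 87.9 CPM (median 77.8), against 10.5 to 14.1 CPM, a log2 difference of 1.31 (standard error 0.10, adjusted p = 8.54e-12). Tag and ligase were thus higher with AU15330 without overlap. The activating enzyme Uba7 lay between 52.9 and 63.4 CPM (median 55.3) and between 81.1 and 113 CPM (median 93.9), and the conjugating enzyme Ube2l6 between 16.5 and 23.2 CPM (median 20.5) and between 29.4 and 43.9 CPM (median 40.6), both higher with CISPLATIN (−0.76 and −0.93). Usp18, which removes the tag, reached medians of 49.6 and 71.9 CPM with overlapping libraries (log2 difference −0.40, adjusted p = 0.015), a call that was lost without replicate 4, 5 or 6 and was not made within replicates 1 to 3, where the difference was 0.022.

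Among 38 other antiviral effectors, 12 were higher with AU15330 (31.6%, near the 35.8% of all tested genes) and 20 with CISPLATIN (52.6%, against 37.3%), with a median of −0.61. Trim30a lay between 125 and 145 CPM (median 131) with AU15330 and between 21.1 and 43.6 CPM (median 32.1) with CISPLATIN, against 0 to 0.619 CPM with DMSO, a log2 difference of 2.02 (standard error 0.17, adjusted p = 7.05e-11). Tor3a lay between 317 and 348 CPM (median 332) and between 104 and 117 CPM (median 114), against 50.03 to 64.4 CPM, a log2 difference of 1.55 (standard error 0.06, adjusted p = 1.6e-17). Eif2ak2, the kinase PKR that stops translation on double-stranded RNA, lay between 278 and 320.1 CPM (median 299.9) and between 154 and 214 CPM (median 189), against 45.3 to 67.6 CPM, a log2 difference of 0.68 (standard error 0.09, adjusted p = 2.09e-07). In these 3 AU15330 libraries were highest throughout. Trim21, Trim34a, Xaf1, Ifi35, Parp9 and Parp12 were also higher with AU15330, by 1.72, 1.26, 0.90, 0.63, 0.41 and 0.54.

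On the other side, Rsad2, which encodes viperin, lay between 5.39 and 8.78 CPM (median 7.51) with AU15330 and between 120.3 and 191 CPM (median 160.4) with CISPLATIN, against 0.390 to 2.59 CPM with DMSO, a log2 difference of −4.39 (standard error 0.23, adjusted p = 3.09e-15). Cmpk2, its neighbour, lay between 6.29 and 13.7 CPM (median 7.29) and between 67.8 and 117 CPM (median 105), against 0.0974 to 1.35 CPM, a log2 difference of −3.56 (standard error 0.22, adjusted p = 1.04e-13). Mx1, a GTPase that blocks viral nucleocapsids, lay between 0 and 0.191 CPM (median 0.150) and between 14.8 and 21.6 CPM (median 17), against 1.84 to 6.06 CPM, a log2 difference of −7.07 (standard error 0.37, adjusted p = 2.29e-15). Rsad2 and Cmpk2 rose from DMSO with each drug, whereas Mx1 fell with AU15330 and rose with CISPLATIN. The related gene Mx2, annotated as a polymorphic pseudogene like Oas1b, rose with both, between 14.3 and 17 CPM (median 16.2) and between 26.3 and 43.4 CPM (median 35.1), against 0.676 to 1.24 CPM. Ifi44 lay between 0.992 and 1.77 CPM (median 1.13) and between 110.5 and 163 CPM (median 145), against 1.18 to 3.22 CPM, a log2 difference of −6.75 (standard error 0.20, adjusted p = 6.53e-20). Ifi44 was thus within or below the DMSO range with AU15330 and far above it with CISPLATIN. Ifitm3, which blocks the entry of viruses, lay between 14.9 and 32.7 CPM (median 19.1) and between 117 and 164 CPM (median 145), against 18.5 to 29 CPM. Zbp1, a sensor of Z-form nucleic acid, lay between 0.0486 and 0.288 CPM (median 0.187) and between 7.82 and 15.2 CPM (median 13.1), a log2 difference of −6.001 (standard error 0.30, adjusted p = 1.22e-15). Slfn2 had 3 reads in all with AU15330, which is at the floor of 3 over a group, and 3.71 to 10.6 CPM with CISPLATIN, so no fold is given. A further set was not called: Rtp4 lay between 109 and 135 CPM (median 112) and between 109 and 144 CPM (median 122), against 0.974 to 4.31 CPM (−0.11, 95% interval −0.40 to 0.18), and Dtx3l, Adar and Parp14 had intervals of −0.11 to 0.38, −0.06 to 0.32 and −0.51 to 0.02. Parp14 was called without replicate 1 (−0.32) or 2 (−0.33) and within replicates 4 to 6 (−0.53). Dtx3l and Adar were called higher with AU15330 within replicates 1 to 3 (0.42 and 0.40).

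**Figure D4:**
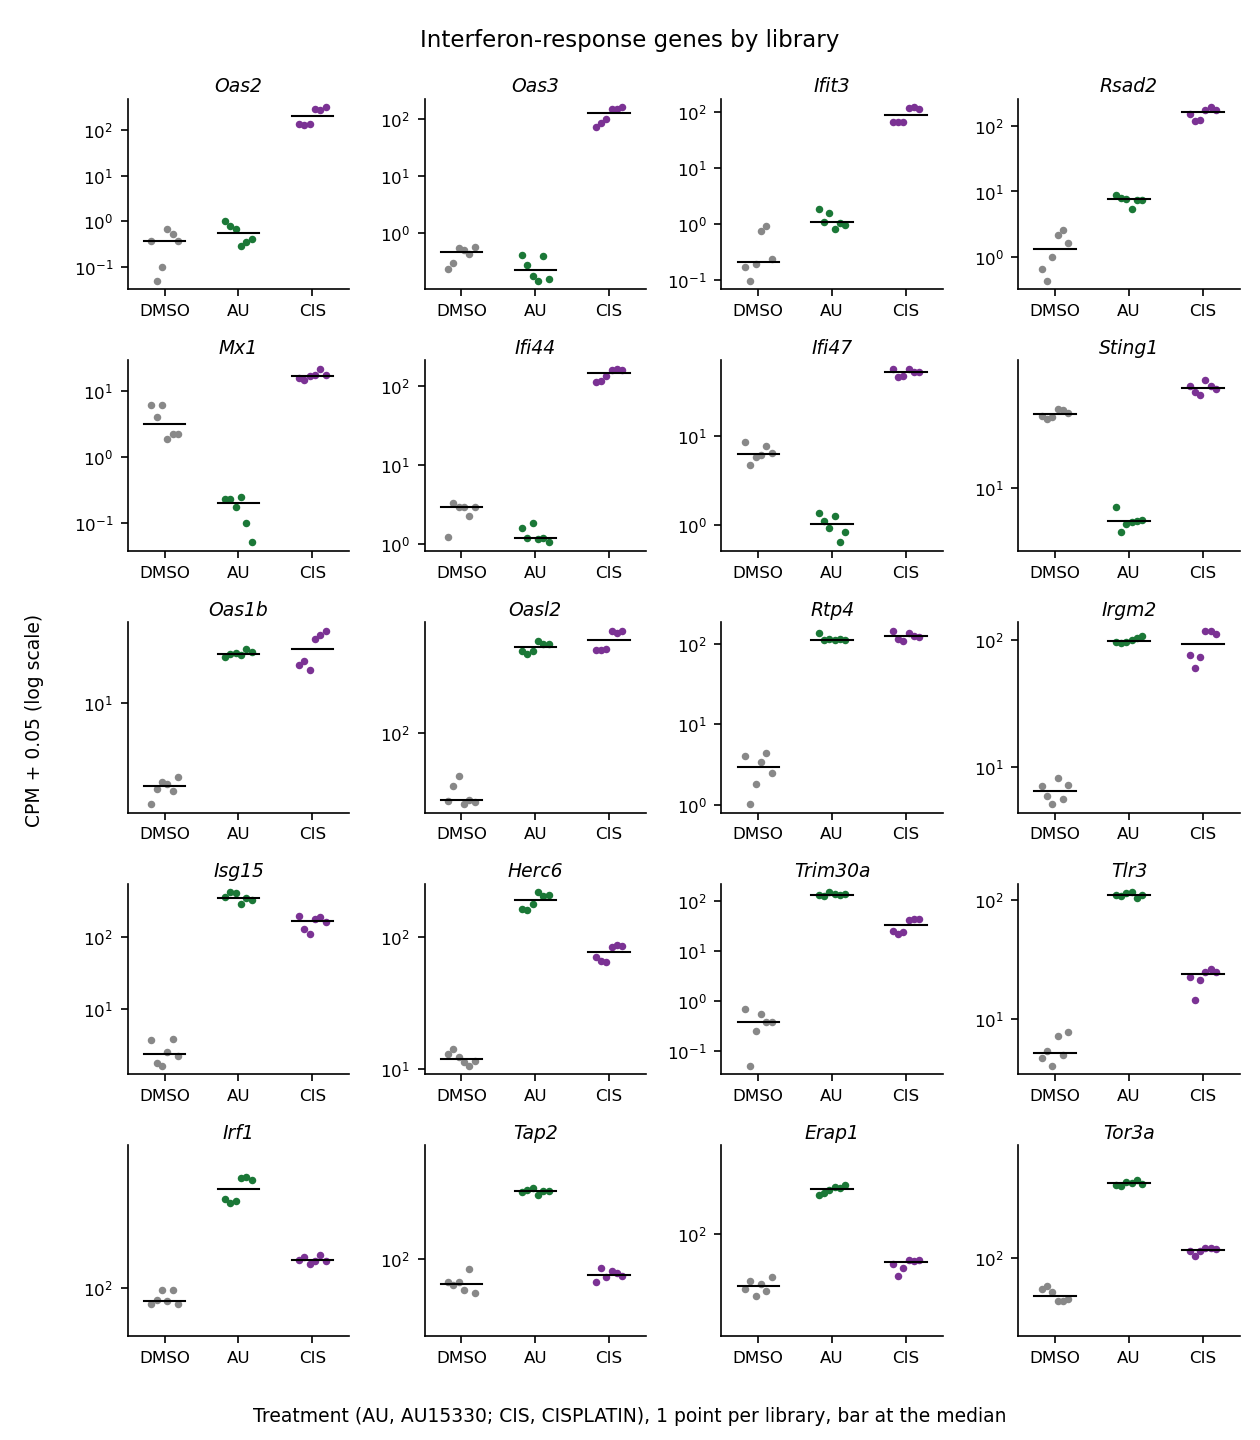
Level of 20 interferon-list genes in each DMSO, AU15330 (AU) and CISPLATIN (CIS) library (1 point each, in the order of replicates 1 to 6, CPM plus 0.05, log scale, bar at the median of 6). In rows 1 and 2 the CISPLATIN libraries are far above the AU15330 libraries, in row 3 (Oas1b, Oasl2, Rtp4, Irgm2) the drugs overlap well above DMSO, and in rows 4 and 5 the AU15330 libraries are highest. Several genes, such as Oas2 and Trim30a, are lower in CISPLATIN replicates 1 to 3 than in 4 to 6.

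MHC class I presentation leaned to AU15330. Of 17 genes 15 were tested, and each drug raised all 15 above DMSO (against 36.2% of all tested genes with AU15330 and 26.0% with CISPLATIN). Directly compared, 9 were higher with AU15330 and 3 with CISPLATIN (against 35.8% and 37.3% of all tested genes, median 0.76). H2-K1, a classical class I chain, lay between 296 and 482 CPM (median 388) with AU15330 and between 152 and 192 CPM (median 182) with CISPLATIN, against 56.1 to 103 CPM with DMSO, a log2 difference of 1.11 (standard error 0.14, adjusted p = 4.77e-08). Tap2, a subunit of the peptide pump, lay between 278 and 307 CPM (median 294) and between 68.1 and 86.2 CPM (median 77.2), against 57.6 to 84.8 CPM, a log2 difference of 1.92 (standard error 0.08, adjusted p = 2.69e-17). Erap1, which trims peptides, lay between 187 and 218 CPM (median 205) and between 50.6 and 65.7 CPM (median 63.4), against 36.9 to 50.2 CPM, a log2 difference of 1.74 (standard error 0.08, adjusted p = 1.18e-16). All AU15330 libraries were above all CISPLATIN libraries in these genes. The immunoproteasome subunits split: Psmb9 and Psmb10 were higher with AU15330 (1.15 and 1.04) and Psmb8 with CISPLATIN (−1.69). B2m, the light chain, lay between 841 and 1033 CPM (median 929.8) and between 682 and 951 CPM (median 792), with overlap and no call (0.20, interval −0.05 to 0.45), but it was called higher with AU15330 when library totals replaced TMM (0.26). Nlrc5, the activator of class I genes, was low with both, at medians of 0.875 and 1.5 CPM (−0.91, a call lost without replicate 5 or 6 and within replicates 1 to 3).

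Chemokines, which call leukocytes, were higher with CISPLATIN in 9 of 9 tested genes, without overlap (against 37.3% of all tested genes by the test and 29.7% without overlap, median −2.71, all tested genes −0.01). Cxcl10 lay between 2.03 and 3.87 CPM (median 2.76) with AU15330 and between 25 and 65.6 CPM (median 41.3) with CISPLATIN, against 0.186 to 1.07 CPM with DMSO, a log2 difference of −3.93 (standard error 0.28, adjusted p = 1.45e-12). Ccl5 lay between 3.95 and 7.19 CPM (median 6.31) and between 26.1 and 34.3 CPM (median 30.2), against 1.18 to 2.1 CPM, a log2 difference of −2.39 (standard error 0.18, adjusted p = 3.92e-12). Ccl2 lay between 0.658 and 1.58 CPM (median 1.01) and between 6.37 and 13.3 CPM (median 9.86), against 0.186 to 0.592 CPM, a log2 difference of −3.19 (standard error 0.29, adjusted p = 1.78e-10). Both drugs raised these 3, CISPLATIN further. Cxcl12, the ligand of CXCR4, was instead lowered by AU15330 (−4.24), between 19.6 and 54.5 CPM (median 26.8) and between 438 and 610.4 CPM (median 489), against 499.9 to 781 CPM. Cx3cl1 and Ccl20 fell below DMSO with AU15330 and rose with CISPLATIN.

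Of 28 cytokines and proteases of the senescence-associated secretory phenotype 19 were tested, 5 higher with AU15330 and 14 with CISPLATIN (26.3% and 73.7%, against 35.8% and 37.3% of all tested genes, median −1.67). On the AU15330 side Areg, which encodes the EGF receptor ligand amphiregulin, lay between 24.6 and 50.6 CPM (median 29.6) with AU15330 and between 1.28 and 2.96 CPM (median 1.7) with CISPLATIN, against 4.64 to 10.4 CPM with DMSO, a log2 difference of 4.03 (standard error 0.22, adjusted p = 7.88e-15). Ereg differed by 2.39 and Csf1 by 0.76. The CISPLATIN side included the protease gene Mmp10 and the interleukin gene Il33. Mmp10 lay between 0 and 0.132 CPM (median 0.0936) and between 18 and 28.7 CPM (median 23), against 5.57 to 19.4 CPM, a log2 difference of −8.13 (standard error 0.41, adjusted p = 1.43e-15). With AU15330 every library was below all DMSO libraries, with only 10 reads in all. Il33 lay between 0.0440 and 0.209 CPM (median 0.0936) and between 4.18 and 7.16 CPM (median 6.35), a log2 difference of −5.64 (standard error 0.28, adjusted p = 7.82e-16). Igfbp4, a binding protein of insulin-like growth factors, lay between 39.8 and 51.8 CPM (median 46.3) and between 947 and 1518 CPM (median 1106), against 1910.3 to 3439.7 CPM, a log2 difference of −4.69 (standard error 0.17, adjusted p = 2.08e-18). Over the 19 genes AU15330 lowered 13 from DMSO and raised 4 (against 37.2% and 36.2% of all tested genes), and CISPLATIN raised 7 and lowered 6 (against 26.0% and 25.7%).

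Of 19 ligands for NK and T cells 10 were tested, 1 higher with AU15330 and 6 with CISPLATIN (against 35.8% and 37.3% of all tested genes). Cd274, which encodes PD-L1, lay between 17.1 and 20.3 CPM (median 18.7) with AU15330 and between 11.4 and 21 CPM (median 16.9) with CISPLATIN, against 1.59 to 4.0 CPM with DMSO, with overlap between the drugs (0.18, 95% interval −0.13 to 0.49). Ulbp1, a ligand of the activating receptor NKG2D, lay between 1.43 and 2.3 CPM (median 1.87) and between 3.0 and 5.56 CPM (median 4.9), a log2 difference of −1.26 (standard error 0.21, adjusted p = 7.2e-06). Clec2d, a ligand of an inhibitory NK receptor, lay between 1.76 and 2.39 CPM (median 2.06) and between 8.28 and 11 CPM (median 9.82), against 1.56 to 4.75 CPM, a log2 difference of −2.23 (standard error 0.19, adjusted p = 3.72e-11). In both ligands every CISPLATIN library was above every AU15330 library. Cd47, the signal against phagocytosis, was the 1 gene higher with AU15330, between 353 and 444 CPM (median 384) and between 199 and 225 CPM (median 204), against 164 to 239 CPM, a log2 difference of 0.90 (standard error 0.08, adjusted p = 1.05e-10). The death ligand Tnfsf10 had 3 reads in all with AU15330 and 0.994 to 2.44 CPM with CISPLATIN.

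Mitosis separated the drugs without an exception. All 36 mitotic genes were higher with CISPLATIN (median −1.72, against 37.3% of all tested genes and a median of −0.01), in 35 of them without overlap (against 29.7%), and the same 36 of 36 were called without replicate 1 (median −1.88). CISPLATIN raised all 36 above DMSO (median 2.74, against 26.0% of all tested genes), and AU15330 raised 31 (median 1.02, against 36.2%), or 27 without replicate 1 (median 0.83). Mki67, the marker of cycling cells, lay between 65.5 and 163 CPM (median 81.4) with AU15330 and between 249.9 and 375 CPM (median 338) with CISPLATIN, against 30.2 to 83.2 CPM with DMSO, a log2 difference of −1.77 (standard error 0.23, adjusted p = 1.21e-07). Top2a, which untangles sister chromatids, lay between 146 and 310.1 CPM (median 175) and between 471 and 588 CPM (median 529), against 71.3 to 139.9 CPM, a log2 difference of −1.42 (standard error 0.17, adjusted p = 3.38e-08). Ccnb1, the cyclin of mitotic entry, lay between 8.49 and 23.9 CPM (median 12.2) and between 46.8 and 65.8 CPM (median 54.6), against 4.28 to 11.4 CPM, a log2 difference of −1.93 (standard error 0.23, adjusted p = 2.45e-08). The highest AU15330 value of each was in replicate 1, which held the highest AU15330 level of 35 of the 36 genes and the highest CISPLATIN level of 30. Ccnb2 and Cdc20, whose promoters are printed above, differed by −1.68 and −1.69.

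DNA replication moved the same way by a smaller step. Of 36 genes 31 were higher with CISPLATIN, 1 with AU15330 and 4 were not called (86.1% and 2.78%, against 37.3% and 35.8% of all tested genes, median −0.85). CISPLATIN raised 35 above DMSO and AU15330 raised 29 (against 26.0% and 36.2%). Mcm3, of the replicative helicase, lay between 76.9 and 122 CPM (median 81.5) with AU15330 and between 151 and 222 CPM (median 171) with CISPLATIN, against 25.2 to 46.2 CPM with DMSO, a log2 difference of −0.96 (standard error 0.13, adjusted p = 3.82e-07). Rrm1, the large subunit of ribonucleotide reductase, lay between 69.8 and 143 CPM (median 77.1) and between 359 and 433 CPM (median 369), against 126 to 216 CPM, a log2 difference of −2.09 (standard error 0.15, adjusted p = 1.8e-12), so that AU15330 placed it below DMSO and CISPLATIN above. Pcna, the sliding clamp, lay between 159 and 217 CPM (median 164) and between 142 and 248 CPM (median 157), with overlap (0.04, interval −0.19 to 0.27). Pola1, the catalytic subunit of DNA polymerase alpha, was the 1 gene higher with AU15330 (0.41). Without replicate 1 the counts were again 31, 1 and 4.

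Among 22 crosslink repair genes 14 were higher with CISPLATIN and 5 with AU15330 (63.6% and 22.7%, against 37.3% and 35.8%, median −0.46). Brca1 lay between 26.2 and 42.4 CPM (median 28.6) with AU15330 and between 44.8 and 66.9 CPM (median 57.8) with CISPLATIN, against 5.6 to 8.29 CPM with DMSO, a log2 difference of −0.90 (standard error 0.10, adjusted p = 1.83e-08). Both drugs placed it above all controls. Ercc1, of the nuclease that cuts beside crosslinks, was lower with AU15330 (−0.48) and not changed from DMSO by CISPLATIN in the test (0.09). Atr, the kinase of stalled forks, and Brip1, the helicase FANCJ, were higher with AU15330 (0.67 and 0.86).

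The lists of G1 regulators and p53 targets were called about as often as all tested genes, and single members lay far apart. Of 20 G1 genes tested 8 were higher with each drug (40.0%, against 35.8% of all tested genes with AU15330 and 37.3% with CISPLATIN). Ccnd1, cyclin D1, lay between 16 and 34.4 CPM (median 17.6) with AU15330 and between 223 and 243 CPM (median 236) with CISPLATIN, against 58.2 to 76.8 CPM with DMSO, a log2 difference of −3.55 (standard error 0.15, adjusted p = 3.03e-17). Ccnd2, cyclin D2, lay between 1146 and 1429 CPM (median 1269) and between 239 and 324 CPM (median 269), against 321 to 553 CPM, a log2 difference of 2.23 (standard error 0.13, adjusted p = 1.77e-14). The 2 cyclins were thus mirror images, D1 down with AU15330 and up with CISPLATIN, and D2 the reverse. Cdkn1a, the CDK inhibitor p21, lay between 2.25 and 5.4 CPM (median 3.75) and between 15.5 and 29.2 CPM (median 18.9), against 38.3 to 84 CPM, a log2 difference of −2.44 (standard error 0.20, adjusted p = 3.17e-11), below the controls with both. Of 18 p53 targets tested in these Trp53-knockout cells, 6 were higher with AU15330 and 7 with CISPLATIN (33.3% and 38.9%, against the same shares). CISPLATIN raised 3 and lowered 7 of them from DMSO (against 26.0% and 25.7% of all tested genes), and Mdm2, Aen and Zmat3 were not called (log2 differences −0.11, 0.04 and 0.21). AU15330 raised 6 and lowered 9 of the 18 from DMSO (against 36.2% and 37.2% of all tested genes). Among them AU15330 lowered Gdf15, Trp53inp1 and Btg2 (−6.16, −2.85 and −2.43) and raised Bbc3, Ccng1 and Rrm2b (1.12, 0.99 and 1.00).

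Stress and metabolic lists were divided between the drugs. Of 15 NRF2 targets 8 were higher with AU15330 and 5 with CISPLATIN (53.3% and 33.3%, against 35.8% and 37.3% of all tested genes, median 0.34). From DMSO, AU15330 raised 6 and lowered 7 of them (against 36.2% and 37.2% of all tested genes). CISPLATIN raised 0 and lowered 12 (against 26.0% and 25.7%). Hmox1, which breaks down haem, lay between 1173 and 1693 CPM (median 1208) with AU15330 and between 144 and 259.7 CPM (median 187) with CISPLATIN, against 281 to 393 CPM with DMSO, a log2 difference of 2.81 (standard error 0.16, adjusted p = 8.84e-15). Nfe2l2, which encodes NRF2, lay between 584 and 776 CPM (median 664) and between 239 and 262 CPM (median 254), against 213 to 255 CPM, a log2 difference of 1.403 (standard error 0.07, adjusted p = 1.7e-15). Gclc, Nqo1 and Srxn1 followed on the AU15330 side, whereas Me1, Osgin1, Fth1, Gsta4 and G6pdx were on the other (−1.902, −1.73, −1.23, −1.28 and −1.18).

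Of 24 genes of the ATF4 stress response 6 were higher with AU15330 and 8 with CISPLATIN (25.0% and 33.3%, both below the 35.8% and 37.3% of all tested genes) and 10 were not called. Neither drug raised any of them above DMSO. AU15330 lowered 17 and CISPLATIN 20, against 37.2% and 25.7% of all tested genes. Ddit3 (CHOP), Asns and Chac1 were not called against DMSO with AU15330 (−0.25, −0.06 and 0.09) and fell with CISPLATIN, and they differed between the drugs by 1.14, 0.97 and 1.29. Psat1, of serine synthesis, lay between 27.7 and 43.6 CPM (median 29.8) with AU15330 and between 180.2 and 259 CPM (median 191) with CISPLATIN, against 286 to 396 CPM with DMSO, a log2 difference of −2.65 (standard error 0.13, adjusted p = 5e-16). Aldh1l2, a mitochondrial folate enzyme, lay between 0.360 and 0.822 CPM (median 0.688) and between 9.5 and 13.1 CPM (median 11.1), against 33.5 to 185 CPM, a log2 difference of −4.17 (standard error 0.34, adjusted p = 3.14e-11). Both enzymes were below DMSO with either drug and furthest below with AU15330.

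Of 27 tested genes of cholesterol and fatty acid synthesis 6 were higher with AU15330 and 14 with CISPLATIN (22.2% and 51.9%, against 35.8% and 37.3%, median −0.35). Both drugs lowered most of them from DMSO, AU15330 19 and CISPLATIN 21, against 37.2% and 25.7% of all tested genes. AU15330 raised 2 and CISPLATIN 1, against 36.2% and 26.0%. Hmgcs1, an early enzyme of sterol synthesis, lay between 230.2 and 296 CPM (median 267) with AU15330 and between 503 and 708 CPM (median 568) with CISPLATIN, against 708 to 1240.5 CPM with DMSO, a log2 difference of −1.12 (standard error 0.13, adjusted p = 3.52e-08), and the sterol genes Sqle, Cyp51 and Insig1 differed by −1.53, −1.55 and −1.75. Fasn, fatty acid synthase, went the other way and lay between 639 and 945 CPM (median 885) and between 303 and 495 CPM (median 411), against 326 to 663 CPM, a log2 difference of 1.02 (standard error 0.13, adjusted p = 1.45e-07), and Scd1, Scd2 and Acaca, which also make or desaturate fatty acids, differed by 2.77, 1.11 and 0.81. Glycolysis and low-oxygen targets fell with both drugs, 18 of 19 with AU15330 and 19 of 19 with CISPLATIN, against 37.2% and 25.7% of all tested genes. Directly compared, 3 were higher with AU15330, 7 with CISPLATIN (15.8% and 36.8%) and 9 not called. Hk2, which traps glucose in the cell, lay between 24.9 and 30.9 CPM (median 28.1) and between 178 and 227 CPM (median 198), against 197 to 292 CPM, a log2 difference of −2.84 (standard error 0.10, adjusted p = 7.46e-19). Car9, a carbonic anhydrase, was the exception that AU15330 raised (1.03).

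Of 25 subunits of SWI/SNF 9 were higher with each drug (36.0%, about the 35.8% and 37.3% of all tested genes, median −0.03). The ATPases differed in sign: Smarca4 was higher with AU15330, a log2 difference of 0.28 (standard error 0.06, adjusted p = 6.65e-05), and Smarca2 was lower, a log2 difference of −0.80 (standard error 0.08, adjusted p = 3.23e-09). Arid1a, which places BAF at DNA, lay between 388 and 494 CPM (median 422) and between 149 and 229 CPM (median 195), against 168 to 265 CPM with DMSO, a log2 difference of 1.19 (standard error 0.12, adjusted p = 1.74e-09). Phf10, of the PBAF form, lay between 43.3 and 53.2 CPM (median 44.5) and between 105 and 115 CPM (median 108), against 114 to 168 CPM, a log2 difference of −1.23 (standard error 0.08, adjusted p = 6.53e-13). Bicral, of the ncBAF form, was higher with AU15330 (1.59) and its paralog Bicra lower (−0.97).

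Lists of cell shape and identity were lower with AU15330. Of 12 tested ovarian surface and mesothelial markers 11 were higher with CISPLATIN and 1 with AU15330 (91.7% and 8.33%, against 37.3% and 35.8% of all tested genes, median −2.47), all 12 without overlap. AU15330 lowered 9 of them from DMSO (against 37.2%), and CISPLATIN raised 9 (against 26.0%). Upk3b, a uroplakin of mesothelium, lay between 0.164 and 1.04 CPM (median 0.427) with AU15330 and between 177 and 233 CPM (median 197) with CISPLATIN, against 13.9 to 63.5 CPM with DMSO, a log2 difference of −8.63 (standard error 0.48, adjusted p = 8.7e-15). Msln, mesothelin, lay between 99.9 and 131 CPM (median 118) and between 514 and 618 CPM (median 583), against 418 to 592 CPM, a log2 difference of −2.31 (standard error 0.09, adjusted p = 2.05e-17). Wt1, a transcription factor of the same lineage, lay between 490.2 and 711 CPM (median 635) and between 868 and 1089.9 CPM (median 981), against 794 to 916 CPM, a log2 difference of −0.67 (standard error 0.08, adjusted p = 1.62e-08), and Gata6 was the 1 gene higher with AU15330 (0.78). Among the keratins Krt19 and Krt18 differed by −7.64 and −2.63 and Krt8 by −1.17. The 5 largest gaps, beyond −6, were those of Upk3b, Krt19, Krt7, Lrrn4 and Upk1b, and the 3 smallest those of Gata4, Gpm6a and Wt1. The call of Gata4 (−0.18) was lost without replicate 2, 4, 5 or 6, within replicates 1 to 3 and with library totals in place of TMM (−0.13). The call was also lost when all genes with a count were kept (−0.177) and at the 1.5-fold threshold.

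YAP/TEAD factors and targets were higher with CISPLATIN in 11 of 17 tested genes and with AU15330 in 3 (64.7% and 17.6%, against 37.3% and 35.8% of all tested genes, median −0.76). Ccn2, a matricellular protein, lay between 88.7 and 178 CPM (median 107) with AU15330 and between 329 and 507 CPM (median 390.5) with CISPLATIN, against 162 to 420.4 CPM with DMSO, a log2 difference of −1.82 (standard error 0.20, adjusted p = 6.92e-09). Ankrd1 lay between 15.7 and 54.2 CPM (median 24.4) and between 172 and 249.7 CPM (median 211), against 75.5 to 148 CPM, a log2 difference of −2.82 (standard error 0.25, adjusted p = 1.23e-10). Both fell below DMSO with AU15330 and rose above it with CISPLATIN by the test. Of 11 AP-1 factors 3 were higher with AU15330 and 6 with CISPLATIN (27.3% and 54.5%, against 35.8% and 37.3%). Fosl1, which encodes FRA1, lay between 0.191 and 0.855 CPM (median 0.431) and between 5.31 and 10.7 CPM (median 5.8), against 5.75 to 12.6 CPM, a log2 difference of −3.897 (standard error 0.31, adjusted p = 1.45e-11). Of 30 tested genes of collagens and matrix 19 were higher with CISPLATIN and 5 with AU15330 (63.3% and 16.7%, against 37.3% and 35.8%, median −0.84). Loxl2 and Loxl4, which crosslink collagen, differed by −3.16 and −3.94. On the AU15330 side Col4a6, a basement membrane collagen, lay between 1075 and 1519.5 CPM (median 1365) and between 202 and 329 CPM (median 315), against 304 to 411 CPM, a log2 difference of 2.19 (standard error 0.12, adjusted p = 7.95e-15). The summed fibroblast and endothelial markers were also higher with CISPLATIN, and their part in these list values was not tested.

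**Figure D5:**
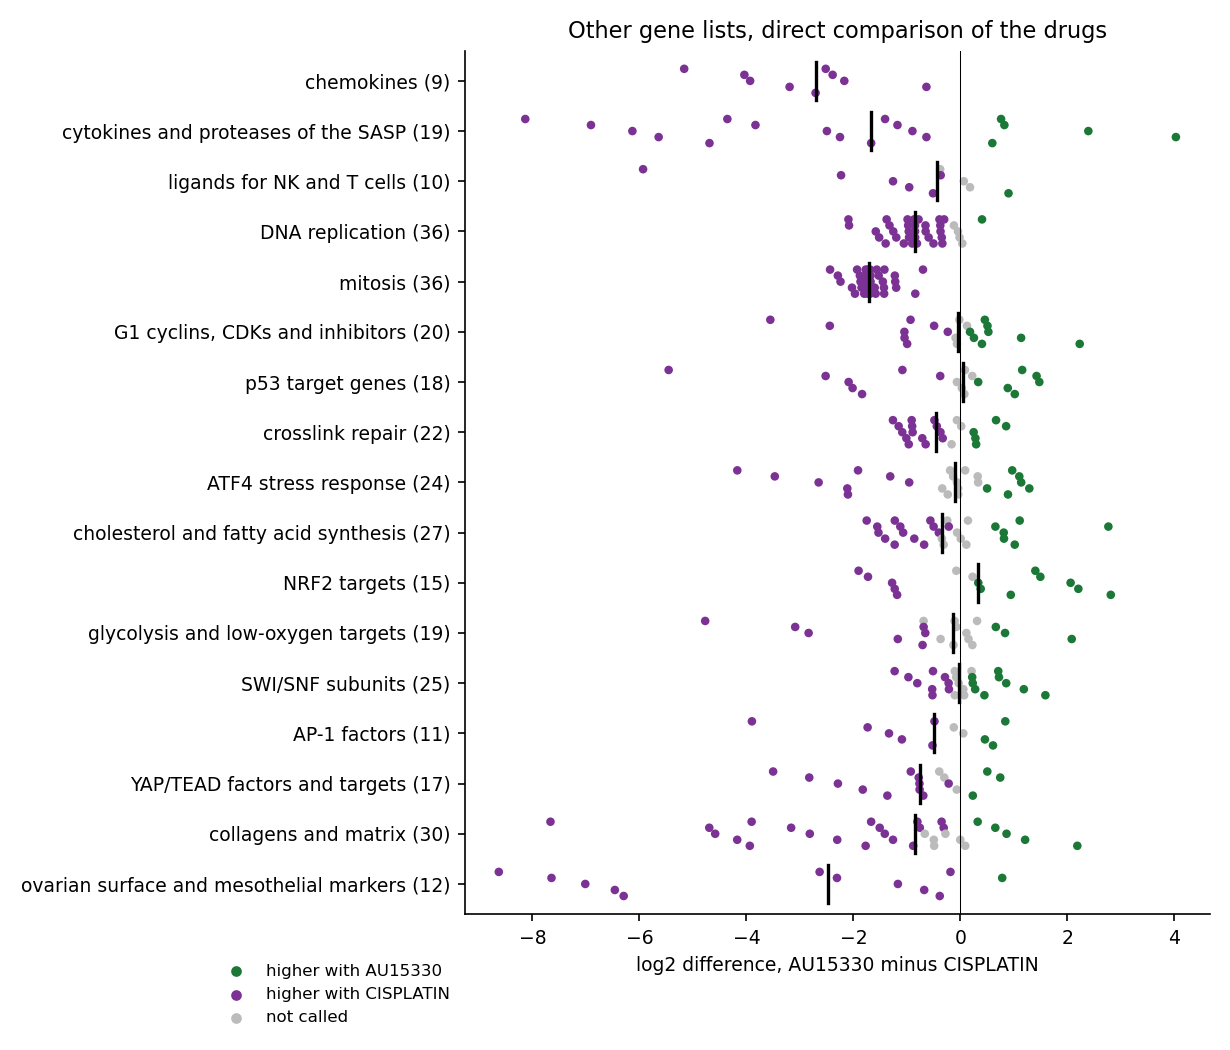
Log2 difference (AU15330 minus CISPLATIN) of every tested gene of 17 further lists, with the number tested, coloured by the call and with a bar at each list's median. Chemokines and mitosis lie wholly left of 0 (9 of 9 and 36 of 36 genes higher with CISPLATIN), the NRF2 targets have the median furthest to the right (0.34), and the SWI/SNF subunits are spread about 0.

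Outside the interferon lists, 14 genes of at least 4 log2 CPM were raised at least 4-fold by each drug. The 5 that differed least between the drugs were Wdr62, Cd274, Uhrf1, Tanc2 and Trim12c. Wdr62, which orients the spindle, was at 3.96 to 6.63 CPM with DMSO, 26.9 to 35.3 CPM with AU15330 and 25.6 to 38.6 CPM with CISPLATIN. Uhrf1, which guides the copying of DNA methylation, was at 8.29 to 14.7, 49.6 to 75.3 and 56.2 to 93 CPM, and Trim12c, of the same gene family as Trim30a, at 4.69 to 5.79, 21.5 to 30.9 and 27.6 to 44.9 CPM. In the 3 genes both drugs were above all DMSO libraries. Between the drugs they differed by 0.01, −0.21 and −0.47 (95% intervals −0.22 to 0.23, −0.46 to 0.03 and −0.69 to −0.25), and within replicates 4 to 6 Uhrf1 was called (−0.23).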

How the data were processed

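RNA was measured in 24 libraries of ID8 Trp53−/− cells, 6 each for DMSO, AU15330, CISPLATIN and both drugs. Per the labels and the written methods, strand-specific libraries of polyadenylated RNA were sequenced single-end and aligned by the authors with STAR 2.7.1a to mm10; the counting tool, gene annotation and strand setting were not given in the sources used here. The authors deposited raw read counts per gene symbol, unnormalised, with 2 lanes per library in 48 columns. Depth was 17592588 to 25260009 counts per library, and reads without molecular identifiers are not independent molecules.

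Lanes were summed. Genes kept by filterByExpr over 4 groups (12941 of 25229 symbols) were scaled by TMM and tested with edgeR 4.0.16 (R 4.3.3), by quasi-likelihood in 1 fit of all 24 libraries without a replicate term, as 3 contrasts with Benjamini-Hochberg adjustment at 0.05. Differences are log2, with the standard error taken as the difference over the square root of F. The 95% intervals use edgeR's total degrees of freedom, which are 20 residual degrees plus those of its prior. Plots add 0.05 CPM. No fold is given where a group held 3 or fewer counts in all. The test recovered 183 of 198 changed genes and made 7 false calls on simulated data over 12728 genes of the AU15330 and CISPLATIN comparison, and 0 calls where nothing had been changed. The simulated libraries shared a common mean per gene, had few changed genes and were drawn independently. The result therefore does not measure the scaling or the false calls in these data, where most genes differed and replicates stood apart.

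The members and gene lists were chosen with earlier results of these data known. Genes were named by rule: the 8 with the largest difference in each direction at 4 log2 CPM or more without overlap, the 5 with the largest difference in each one-drug and opposite pattern, the 5 with the smallest in the shared pattern, list members, and Smarca4, Smarca2 and Trp53. List members printed with values were picked after their values were seen. The alternatives were DESeq2 1.42.0 (size factors and Wald test), library totals, other filters, a 1.5-fold threshold, the 12 libraries alone, a replicate term and each replicate left out. Replicates 1 to 3 and 4 to 6 alone were added after seeing the data. Promoters came from RefSeq (GRCm38.p6) and gene positions from GENCODE on GRCm38, the build of the files.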

Additional observations from a re-analysis of the deposited data

Results flagged for a closer look

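Each named gene was searched, in each drug's 6 libraries, for 1 library far from the other 5 by Dixon's criterion on the gap to its nearest neighbour. Of 424 groups of 6, over 212 genes, 41 had such a library, where chance alone flags about 1 in 20. Replicate 1 accounted for 32 of the 41, 17 with AU15330 and 15 with CISPLATIN, and the cause was not tested.

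With AU15330, replicate 1 was the highest library for genes of the surface and matrix, of replication and of interferon. It had 14.4 CPM of Krt19, 9.59 CPM of Bgn, 0.45 CPM of Lrrn4 and 3.69 CPM of Pdgfb. Its replication genes were Rrm1 at 143 CPM, Pcna at 217 CPM and Pola1 at 59.9 CPM, with the cyclin Ccnd1 at 34.4 CPM. Its interferon-list genes were Cmpk2 at 13.7 CPM, Gbp3 at 17.4 CPM, Ifitm3 at 32.7 CPM and Rtp4 at 135 CPM. Areg stood at 50.6 CPM, Cyp51 at 88.2 CPM and Psat1 at 43.6 CPM. It was the lowest library for Smarca2, one of the 2 targets of the compound, at 246 CPM, and for Ift80 at 447 CPM. Replicate 2 was the lowest for Gata4 at 476 CPM and Parp9 at 179 CPM.

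With CISPLATIN, replicate 1 was the highest library for the replication and mitotic genes Rrm1 at 433 CPM, Pcna at 248 CPM, Mcm3 at 222 CPM and Cdc20 at 119 CPM, and for the sterol genes Cyp51 at 286 CPM and Sqle at 184 CPM. It was also the highest for Cgas at 17.7 CPM, Ccl20 at 7.16 CPM, Fosl1 at 10.7 CPM, Mxd3 at 8.51 CPM, Dcn at 223 CPM, Ddit3 at 58.7 CPM and Psat1 at 259 CPM, and the lowest for Bgn at 819 CPM and Mavs at 101 CPM. Cyp51, Pcna, Psat1 and Rrm1 stood apart upward in replicate 1 of both drugs, whereas Bgn stood apart upward with AU15330 and downward with CISPLATIN. Replicate 2 was the highest for Ddx41 at 81.2 CPM and the lowest for Mki67 at 250 CPM. Replicate 3 was the highest for Ccng1 at 95.2 CPM, Ereg at 25.9 CPM, Rrm2b at 36.4 CPM and Scd1 at 266 CPM, and the lowest for Ifi35 at 60 CPM.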

How the results depend on the processing

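Of 3390 values for 212 named genes under 16 alternatives, 3303 kept their direction and their side of the threshold, 73 lost the call, 13 gained one and 1 reversed (Usp18, 0.0223 within replicates 1 to 3). A 1.5-fold threshold left 1888 genes higher with AU15330 and 2835 higher with CISPLATIN, 2177 above and 2480 below DMSO with AU15330, 1422 above and 367 below with CISPLATIN, and 23 interferon-list genes higher with AU15330. Within replicates 1 to 3, CISPLATIN lowered 2042 genes. The other gene counts stayed within 1.5 times of their reported value, and the cause of these shifts, beyond fewer samples or a stricter threshold, was not tested. Leaving out 1 replicate gave 4269 to 4728 genes higher with AU15330, 4566 to 4937 higher with CISPLATIN, and 38 to 39 against 61 to 66 interferon-list genes. Without TMM, 61.1% of the genes CISPLATIN changed were higher than DMSO (3977 against 2529), where TMM gave 50.2%, and the median of all genes moved by 0.13 with AU15330 and 0.07 with CISPLATIN against DMSO. Of the genes AU15330 changed, 58.6% were then higher than DMSO (5618 against 3973), where TMM gave 49.3%. In the direct comparison 5028 genes were then higher with AU15330 and 4510 with CISPLATIN, so the larger side changed.

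The replicate numbers were not taken as pairs in the main fit. The deviations of same-numbered AU15330 and CISPLATIN libraries correlated between 0.07 and 0.35, not all above 0.1. Each of these was above the mean with the other numbers (−0.103 to −0.000586), so same-numbered libraries shared some deviation. In 4 of 6 numbers the best match was the own number. With the replicate number as a block, 4896 and 4999 genes were higher with AU15330 and with CISPLATIN, 4950 and 5016 were above and below DMSO with AU15330, 3702 and 3652 with CISPLATIN, and 41 against 64 interferon-list genes. The depth limits low genes: at 3 or fewer reads over 6 libraries no fold could be given for Slfn2, Gbp10 or Tnfsf10.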
